A study of Drosophila melanogaster with 2 samples.

Results

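The proteasome subunit genes of Drosophila melanogaster were read for promoter binding of Su(var)2-HP2-GFP. They were chosen by symbol alone, as every annotated protein-coding gene whose symbol starts with Prosalpha, Prosbeta, Rpn or Rpt followed by a digit. This gave 48 of 13968 protein-coding genes, all of them on the chromosome arms. The 48 comprise 32 general subunits (7 Prosalpha, 7 Prosbeta, 6 Rpt and 12 Rpn genes) and 16 copies whose symbols end in T or R, with or without a digit, here called testis copies. Expression was not measured in these samples, so the name of the copies could not be checked against it.

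Su(var)2-HP2 is a partner of HP1 and, like it, is known from heterochromatin. Where it binds was read from ChIP-seq, the sequencing of immunoprecipitated chromatin, on whole embryos 0 to 10 h old. Both samples came from a stable transgenic line in which Su(var)2-HP2 carries GFP at its C terminus, and the antibody was directed against GFP. There was 1 group with 2 biological replicates, numbered 4 and 6 in the labels, and chromatin was sonicated to 200 to 800 bp. Whole embryos mix cell types and stages, the labels do not give the level of the fusion protein relative to the native protein, and embryos without the transgene are not analysed here.

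The proteasome degrades proteins that carry ubiquitin chains. Its core particle is a barrel with outer rings of alpha subunits, which gate the entry, and inner rings of beta subunits, some of which cut peptide bonds. Its regulatory particle holds a ring of Rpt ATPases, which unfold substrates, and the Rpn subunits, which bind ubiquitin chains, remove them and hold the particle together. Several subunits have copies in the fly genome that are known for expression in the male germline.

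4 peak lists were deposited: 30000 peaks for each replicate, 30000 for the replicates pooled, and 2006 peaks in an IDR list, cut by the irreproducible discovery rate of the replicates. The IDR list equals the 2006 strongest pooled peaks. A gene was counted when a peak summit lay within 500 bp of any of its annotated start sites, and its highest summit was read. Signal values are the authors', on a scale not given in the sources used here. For replicates each was divided by the median signal of that list's own top 2006 peaks (127 in replicate 4 and 90.1 in replicate 6), which gives the relative signal. The files give no read numbers, so depth is unknown, and the 95% Wilson intervals below cover counting error only. Genes are not replicates of a condition, and genes that share a promoter share its summit.

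General subunits were among the strongest sites about as often as all genes and mostly had a weaker promoter summit, while the testis copies had almost none. In the IDR list 2 of 32 general subunits had a promoter summit, 6.25% (1.73 to 20.1), near the 8.84% of all protein-coding genes (8.01% of those on the arms). None of the 16 copies did, which allows a share of up to 18.8%. Ribosomal protein genes are, as a class, also broadly expressed and needed in large amounts. They had an IDR summit at 37 of 88 members, 42.0% (32.3 to 52.5), and at 31 of 82, 37.8%, on the arms. Unlike in the proteasome set, gene copies such as RpS5b and RpS10a were not split off from the ribosomal set. The general subunits are thus set beside a group that includes copies. In the pooled list the counts were 26 of 32 general subunits, 81.2% (64.7 to 91.1), and 71 of 88 ribosomal protein genes, 80.7% (71.2 to 87.6), against 37.9% of all protein-coding genes (37.1% on the arms). The pooled count of testis copies was 1 of 16, 6.25% (1.11 to 28.3). In each replicate list alone, general subunits and ribosomal protein genes were both above all genes, and the copies were below. In replicate 4, 26 general subunits, 81.2%, and 2 copies had a summit, against 84.1% of ribosomal protein genes and 41.0% of all genes. In replicate 6 the counts were 21 general subunits, 65.6%, and 1 copy, against 75.0% of ribosomal protein genes and 35.7% of all genes. Among the 2006 strongest peaks of replicate 4 were summits of 4 of 32 general subunits, 12.5% (4.97 to 28.1), against 8.46% of all genes. In replicate 6 these were 3 of 32, 9.38% (3.24 to 24.2), against 8.74%. Both lists had 0 of 16 copies, and 51.1% and 23.9% of ribosomal protein genes.

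The general subunits entered the pooled list lower down than the ribosomal protein genes. Among the 3000 strongest pooled peaks were summits of 7 general subunits, 21.9%, against 11.9% of all genes and 53.4% of ribosomal protein genes. Among the 10000 strongest the shares were 43.8%, 24.0% and 76.1%, and among the 20000 strongest 68.8%, 32.7% and 80.7%. Ribosomal protein genes gained no further member beyond that, and general subunits gained 4. The median pooled signal of the 26 general subunits with a summit was 51.5, of the 71 ribosomal protein genes 124, and of all 5299 genes with a summit 55.0, while the weakest IDR peak had 120.9. The median of the general subunits was thus close to that of all genes with a summit. The deposited q-value was under 0.05 for 16 of the 26 general summits, for 68 of the 71 ribosomal protein summits, and for 3712 of 5299 over all genes. The pooled calls beyond those 16 are weak ones.

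**Figure D1:**
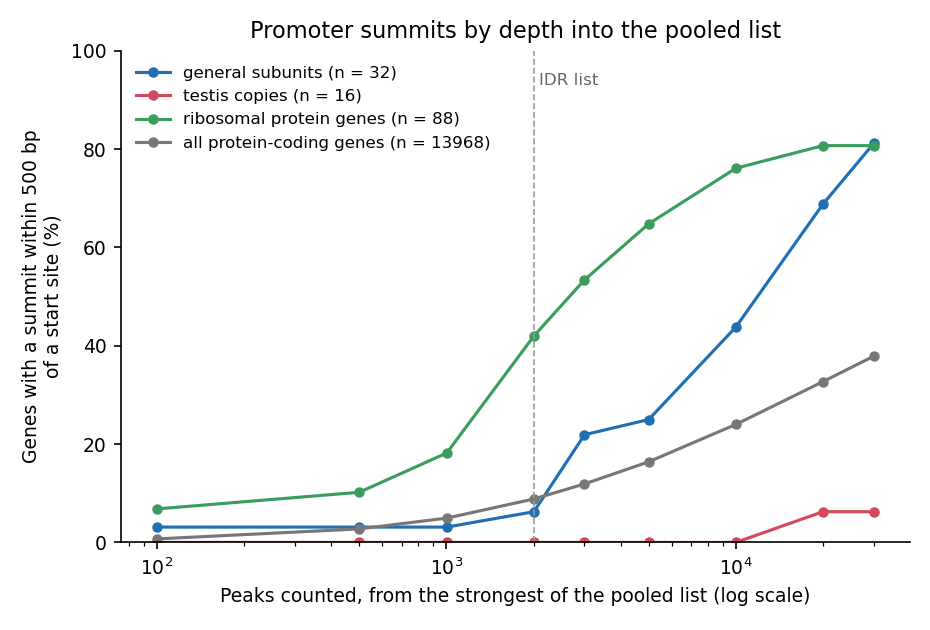
Share of genes (%) with a summit within 500 bp of a start site, against the number of pooled peaks counted from the strongest (log scale), for 32 general subunits, 16 testis copies, 88 ribosomal protein genes and 13968 protein-coding genes; the dashed line marks the IDR list of 2006 peaks. General subunits lie near all genes up to the dashed line. They reach the ribosomal protein genes, from which gene copies were not split off, only at 30000 peaks. There the shares are 81.2% and 80.7%, while the testis copies stay at 6.25% or below.

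Among the alpha ring genes, Prosalpha6 (FBgn0250843) stood far above every other member. Its pooled summit lay at position 10221203 of 2L (dm6), 148 bp upstream of its start site, with a signal of 2726 and rank 52 in the list. The signal was 1707 in replicate 4 (rank 31) and 1053 in replicate 6 (rank 72), a relative signal of 13.5 and 11.7, or 12.6 ± 1.27 (SD, n = 2 replicates). Both values exceeded those of all other members in either replicate, the highest of which was 0.780. Only 4 pooled peaks on the arms had a higher signal, and on the arms 1 ribosomal protein gene, RpS27A, had a stronger promoter peak. The summit was closer to another gene, 13 bp from a start site of Npc1a, which encodes a sterol transporter, so binding at this shared promoter cannot be assigned to either gene. The called interval was 1033 bp wide and covered both start sites, whereas the other members with a pooled summit had intervals of 430 bp or, at Prosbeta1, 134 bp.

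The stretch between the Npc1a exon and the Prosalpha6 start is shown because it belongs to the strongest proteasome promoter. It covers chr2L:10221217-10221350 on the plus strand, and the pooled summit lies just outside it, on the Npc1a side. Capitals mark a DNA replication-related element (DRE, TATCGATA), a site known from promoters of housekeeping genes, whose first base is 16 bases before the Prosalpha6 start. All sequences here are RefSeq Release 6 sequence, which is the dm6 build, written 5′ to 3′ along the gene's strand.
Prosalpha6: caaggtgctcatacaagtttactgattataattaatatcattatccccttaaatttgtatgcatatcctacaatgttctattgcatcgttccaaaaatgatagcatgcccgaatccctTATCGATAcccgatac

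The copy Prosalpha6T (FBgn0032492, 2L) had no summit within 500 bp in any list, and the nearest pooled summit was 11914 bp away. The 250 bases before its start, chr2L:13231789-13232038 on the plus strand, are shown for comparison and held no match to the motifs searched.
Prosalpha6T: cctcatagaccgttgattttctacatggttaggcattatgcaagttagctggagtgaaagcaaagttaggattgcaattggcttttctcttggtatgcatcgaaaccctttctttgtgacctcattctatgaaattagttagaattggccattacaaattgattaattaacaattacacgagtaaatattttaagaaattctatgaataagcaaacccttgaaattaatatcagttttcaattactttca

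Prosalpha6 lies in a stretch of 2L with many strong sites. Within 200000 bp of its start were 45 IDR summits, 43 of them within 500 bp of a start site, and its own ranked 4 among them. Apart from its own and that at RpL7, all of them lay downstream of its start. The same stretch holds the promoter summits of Usp14, which encodes a deubiquitinase of the proteasome, 93149 bp downstream, and of RpS27A, a ribosomal protein gene whose product is made as a fusion to ubiquitin, 186878 bp downstream. Their pooled signals were 2318 (rank 67) and 2787 (rank 46). These 3 genes were the strongest among all members and partner genes examined.

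The other alpha ring genes were much weaker. Prosalpha7 (2R) had a pooled signal of 57.8, with relative signals of 0.408 and 0.099 in replicates 4 and 6 from summits 284 bp apart. Prosalpha4 (X) had 52.7 from a summit 366 bp upstream of its start and 13 bp from that of kat80, which encodes a katanin subunit. It was listed in replicate 6 only, at 0.445. Prosalpha2 (3R) had 33.4, with 0.142 and 0.113 in the replicates, and Prosalpha5 (2R) had 27.5 and was listed in replicate 4 only, at 0.239. Prosalpha3 (2R) had no pooled summit and a single weak one in replicate 6, at 0.0912. Prosalpha1 and its copy Prosalpha1R, neighbours on 2R, had none in any list. No 31-base stretch within 500 bp of either start occurs only once in the assembly, so reads there may not be placed uniquely and the lack of a summit is no clear absence. Without this pair the pooled counts were 26 of 31 general subunits and 1 of 15 copies.

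Of the beta ring genes, Prosbeta1 (FBgn0010590, 2R), a catalytic subunit with caspase-like specificity, was the only one in the IDR list. Its summit at position 16014847 lay 60 bp upstream of its start and 61 bp from that of Rrp42, an RNA exosome subunit gene, with a pooled signal of 139.7 and rank 1647. The relative signal was 0.743 in replicate 4 (rank 1521) and 0.456 in replicate 6 (rank 3043), or 0.599 ± 0.203 (SD, n = 2). Replicate 6 thus placed it outside its own 2006 strongest peaks. The pooled signal of Prosalpha6 was 19.5 times as high.

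The remaining beta genes had low pooled summits or none. Prosbeta7 (3R) had a signal of 39.7 and Prosbeta3 (3R) 36.4. Prosbeta6 (3L) had 26.6, followed by both other catalytic subunits, Prosbeta5 (2R, chymotrypsin-like) with 23.9 and Prosbeta2 (3L, trypsin-like) with 22.1. Of these 5, only Prosbeta7 had a q-value under 0.05. Prosbeta2 was listed in replicate 4 only, and its summit was nearer to mRpL39, as that of Prosbeta5 was nearer to dgo. Prosbeta4 (2L) had no summit within 500 bp in any list, and its nearest pooled summit was 568 bp away.

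The Rpn genes held most of the stronger summits. Of 12 general Rpn genes 11 had a pooled summit, with a median signal of 89.5, against 52.7 for 5 Prosalpha, 42.2 for 4 Rpt and 31.5 for 6 Prosbeta genes. None was in the IDR list, yet 5 of 12 were among the 3000 strongest pooled peaks and 6 of 12 among the 5000 strongest, while no Rpt gene was. Over all genes the shares were 11.9% and 16.4%. Rpn5, Rpn13, Rpn10 and Rpn3 ranked from 2021 to 2136, just below the last IDR peak. Rpn5 (FBgn0028690, 3R), a lid subunit, had a pooled signal of 120.4 and rank 2021. Its relative signal was 0.670 in replicate 4 and 0.629 in replicate 6, or 0.650 ± 0.0291 (SD, n = 2). The summit lay 203 bp upstream and 94 bp from a start of Hat1, a histone acetyltransferase gene.

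The ubiquitin receptor genes Rpn13 and Rpn10 followed. Rpn13 (FBgn0033886) had a pooled signal of 119.7 and rank 2033, with 0.567 and 0.780 in replicates 4 and 6, or 0.673 ± 0.151 (SD, n = 2), from a summit closer to CtsL1, a cathepsin gene. Rpn10 (FBgn0015283, 3L) had 119.5 and rank 2039, with 0.668 and 0.326, or 0.497 ± 0.242 (SD, n = 2). Its summit lay 28 bp downstream of its start, with no other gene's start within 500 bp. Replicate 4 ranked it 1801 and replicate 6 ranked it 5238.

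Rpn3 (FBgn0261396, 2L), a lid subunit, had a pooled signal of 115.4 and rank 2136. The replicates agreed closely, with 0.504 and 0.524, or 0.514 ± 0.0145 (SD, n = 2). Its summit lay 15 bp downstream of its start. The 177 bases before that start, chr2L:19051613-19051789 on the plus strand, are shown because they hold a stretch of 72 bases in 2 identical copies set 78 bases apart. Capitals mark the core of core-promoter Motif 6 (GTATNTTT) on the opposite strand, which begins 141 and 63 bases before the start, in each copy of the repeat. From 250 bases before to 50 after the start Rpn3 also has a DRE, which does not lie wholly within the bases shown. Of the 31-base stretches within 500 bp of this start, 89.3% are unique in the assembly.
Rpn3: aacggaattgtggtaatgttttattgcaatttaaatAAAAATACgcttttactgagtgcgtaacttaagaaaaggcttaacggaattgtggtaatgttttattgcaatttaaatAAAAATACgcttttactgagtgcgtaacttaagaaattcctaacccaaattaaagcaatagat

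Rpn6 (FBgn0028689), known from yeast to clamp lid and core together, had a pooled signal of 100.1, with 0.549 and 0.338 in replicates 4 and 6, or 0.443 ± 0.149 (SD, n = 2). Rpn11 (FBgn0028694, 2L), the deubiquitinase that removes ubiquitin chains, had 89.5 and rank 3050. Its relative signal was 0.363 in replicate 4 and 0.410 in replicate 6, or 0.387 ± 0.033 (SD, n = 2). From Rpn13 down to Rpn11, ordered by mean relative signal with Prosbeta1 among them, each neighbour differed from the next by less than the larger of their SDs. Some genes further apart in that order kept it in both replicates, such as Rpn5 above Rpn3 and Rpn3 above Rpn11. Others did not. Rpn13 was below Rpn10 in replicate 4 (0.567 against 0.668), and Rpn10 was below Rpn11 in replicate 6 (0.326 against 0.410). The Rpn11 promoter has no other start site within 500 bp and its summit lies inside the 250 bases before the start. They are shown as an unshared promoter, chr2L:5059791-5060040 on the minus strand, with no match to the motifs searched.
Rpn11: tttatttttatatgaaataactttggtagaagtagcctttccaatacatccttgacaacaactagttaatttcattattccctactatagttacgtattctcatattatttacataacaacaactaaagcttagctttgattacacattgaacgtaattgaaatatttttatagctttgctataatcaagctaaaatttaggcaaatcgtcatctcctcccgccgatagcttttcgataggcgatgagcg

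Lower Rpn summits were those of Rpn9 (57.3), Rpn7 (50.2), the scaffold subunit genes Rpn1 (41.3) and Rpn2 (32.0), and Rpn12 (18.0, rank 29253), all as pooled signal. Rpn13 and Rpn6 lie on 2R, Rpn1 and Rpn12 on 3L, and Rpn2, Rpn7 and Rpn9 on 3R. The Rpn2 summit lay 1 bp from a start of Slbp, which encodes the histone stem-loop binding protein, and 259 bp from its own. Rpn8, the partner of Rpn11, was the exception: no list had a summit within 500 bp, and the nearest pooled summit was 65164 bp away.

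The ATPase genes were low throughout. Rpt6 (FBgn0020369, X) had the highest pooled signal, 61.4, with 0.337 and 0.225 in replicates 4 and 6, or 0.281 ± 0.0791 (SD, n = 2). Rpt3 (X) had 56.7 but was listed in replicate 4 only, at 0.383. Rpt5 (3R) had 27.7, also in replicate 4 only, and Rpt1 (2R) had 22.3. Rpt2 had no pooled summit and a weak one in replicate 4, at 0.139, and Rpt4 had none in any list.

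**Figure D2:**
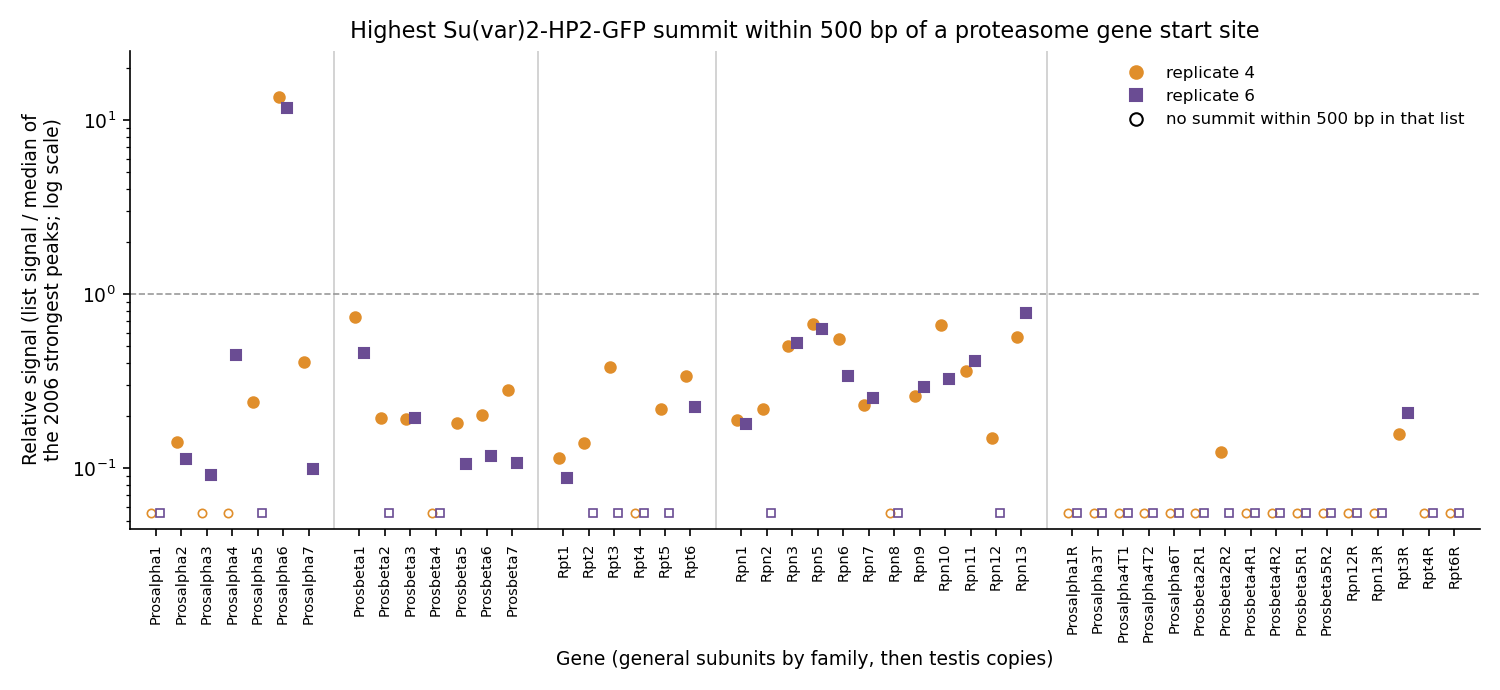
Relative signal (log scale; a value of 1 is the median of the top 2006 peaks in that replicate) of the highest summit within 500 bp of a start site for all 48 genes, in replicate 4 (circles) and replicate 6 (squares); open symbols at the foot mark genes with no such summit in that list and the dashed line is at 1. Prosalpha6, at 13.5 and 11.7, is the only gene above the line, and among the 16 copies only Rpt3R has a filled symbol in both replicates.

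Among the testis copies, Rpt3R (FBgn0037742, 3R) alone had a pooled summit. Its signal was 28.6 (rank 17599), from a summit 65 bp from its start and 46 bp from a start of Alg12, a mannosyltransferase gene. The highest summits of the replicates lay 218 bp apart, with 0.157 in replicate 4 and 0.208 in replicate 6. Their mean, 0.183 ± 0.036 (SD, n = 2), thus joins summits at different positions. Prosbeta2R2 had a summit in replicate 4 only, at 0.124, and the other 14 copies had none in any list. Around the starts of the copies other than Prosalpha1R, every 31-base stretch within 500 bp was unique in the assembly.

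The replicates differed in how many general summits they held, as they did over all genes. Of the 26 pooled summits, 14 had a summit within 100 bp in both replicate lists, 53.8%, close to the 54.2% (2874 of 5299) over all genes. For ribosomal protein summits it was 53 of 71. Another 9 general summits were matched in replicate 4 only, 1 in replicate 6 only and 2 in neither. Over all genes 1554 were matched in replicate 4 only, 532 in replicate 6 only and 339 in neither. For the 19 general subunits listed in both replicates, relative signal was higher in replicate 4 for 13 and in replicate 6 for 6. Each replicate's own highest summit was read, so these pairs are not always from the same site. Paired summits lay up to 602 bp apart, at Prosalpha2. Over all 4093 genes listed in both, 2366 were higher in replicate 4 and 1703 in replicate 6, so the general subunits leaned the same way as the lists as a whole. The median log2 difference (replicate 6 minus replicate 4) was -0.33, beside -0.67 for ribosomal protein genes and -0.15 for all genes. Of the 9 Rpn genes among the 19, relative signal was higher in replicate 6 for 5.

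General summits tended to lie upstream of the start. Their median position was -126 bp (upstream negative) and 20 of 26 were upstream, close to -101 bp and 76.3% over all genes. Only 10 of 26 lay within 100 bp, 38.5%, against 57 of 71 ribosomal protein summits, 80.3%, whose median position was -29 bp. Over all genes the share was 37.6%. A second gene's start lay within 500 bp of a start for 20 of the 32 general subunits, 62.5%, compared with 44 of 88 ribosomal protein genes, 18.8% of copies and 33.4% of all genes. A summit was called shared when another gene's start lay within 500 bp of the summit itself. This held at 16 of 26 general subunits, and 8 of those 16 summits were nearer to the other gene. Over all genes 52.7% of summits were shared, and 1315 of those 2793 were nearer to the other gene, so the general subunits were close to the background. For ribosomal protein genes 39 of 71 were shared and 3 were nearer to the other gene.

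**Figure D3:**
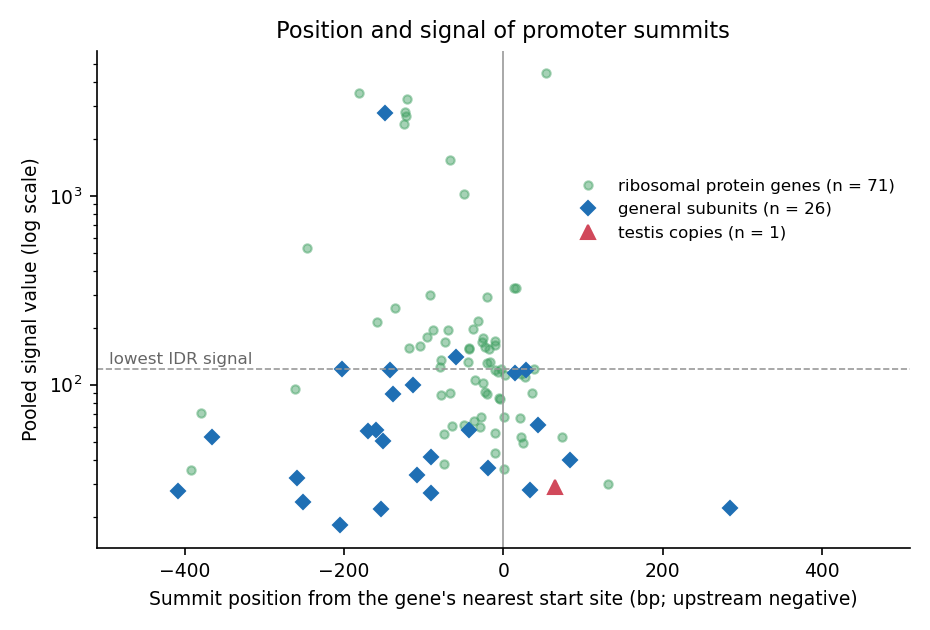
Pooled signal value (log scale) of each gene's highest promoter summit against its position from the nearest start site of that gene (bp, upstream negative), for 26 general subunits (diamonds), 1 testis copy (triangle) and 71 ribosomal protein genes (circles); the dashed line is the lowest IDR signal, 120.9. Ribosomal protein summits crowd near 0, general subunits spread further upstream, with a median of -126 bp, and Prosalpha6 is the diamond at the top.

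Shared promoters moved with the pooled count over all genes, where 57.8% of genes with a neighbouring start had a summit and 28.0% of those without. Within the general subunits the shares were 80.0% (16 of 20) with a neighbour and 83.3% (10 of 12) without. Among genes with no neighbouring start, 0 of 13 copies and 35 of 44 ribosomal protein genes, 79.5%, had a summit. Both IDR members have a neighbouring start.

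The wider surroundings differed between general subunits and copies as well. Within 50 kb of the start, own promoter left out, the median number of pooled summits was 25.5 for general subunits, 1.5 for copies, 19.5 for ribosomal protein genes and 14 for all genes. The median number of genes in the same window was 18.5, 13.5, 18 and 15, so gene number differed much less than summit number. No summit at all lay within 50 kb of 7 of 16 copies and 1 of 32 general subunits, Rpn8, against 10.3% of all genes. The 7 copies were Prosalpha3T, Prosalpha4T1, Prosbeta4R1, Prosbeta4R2, Prosbeta5R2, Rpt4R and Rpt6R, of which Prosbeta4R1 and Prosbeta4R2 are neighbours and share their surroundings. Prosbeta2R2 was the opposite case, with 55 summits within 50 kb and no pooled summit at its own start. The part of the surroundings in the lack of promoter summits at copies was not tested.

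**Figure D4:**
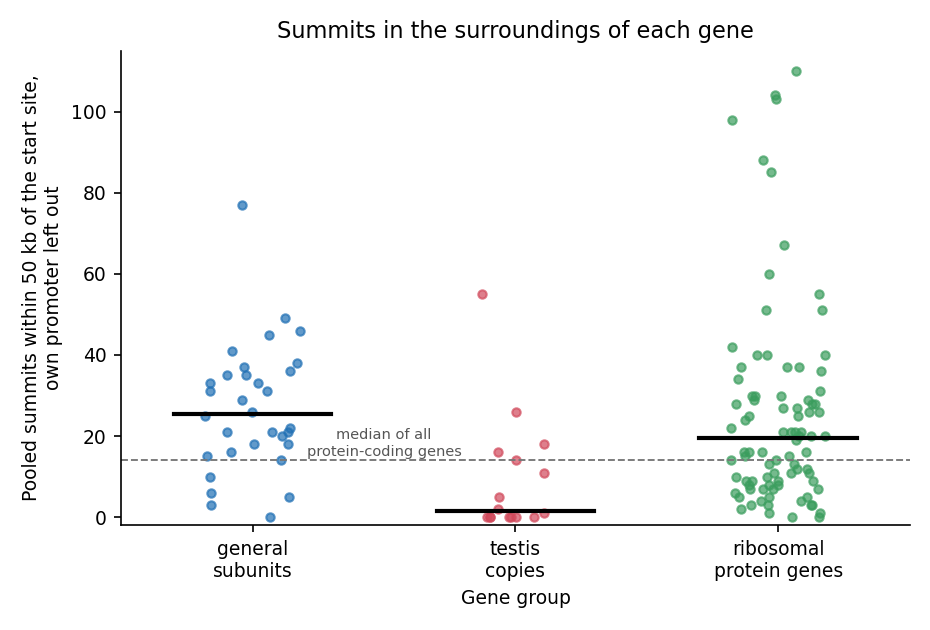
Number of pooled summits within 50 kb of each gene's start site, own promoter left out, for 32 general subunits, 16 testis copies and 88 ribosomal protein genes; points are genes with random sideways spread, black bars are medians and the dashed line is the median of all protein-coding genes, 14. Of the copies 7 of 16 lie at 0, while others reach up to 55, with a median of 1.5. The general subunits have a median of 25.5.

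Promoter motifs were counted from 250 bases before to 50 bases after the outermost start, on both strands. The DRE (TATCGATA) was found at 12 of 32 general subunits, 37.5%, at 0 of 16 copies, at 29.5% of ribosomal protein genes and at 9.36% of all genes. Motif 6 (GTATNTTT) was found at 34.4% of general subunits, 18.8% of copies, 26.1% of ribosomal protein genes and 14.9% of all genes, and Motif 7 (CANCNCTA) at 28.1%, 12.5%, 27.3% and 15.5%. The core of Motif 1 (GGTCACAC) was at 15.6%, 0 copies, 15.9% and 7.69%. The core of the antioxidant response element (TGACNNNGC), bound by the Cnc family that regulates proteasome genes, was at 15.6% of general subunits, 6.25% of copies, 4.55% of ribosomal protein genes and 8.62% of all genes. The E-box CAGCTG was rarer at general subunits, 3.12%, copies, 6.25%, and ribosomal protein genes, 7.95%, than over all genes, 17.6%. GAGAGAG was at 0 of 32 general subunits and 0 of 88 ribosomal protein genes, against 12.5% of copies and 5.86% of all genes. The Zelda site CAGGTA was at 9.38% of general subunits, 6.25% of copies, 4.55% of ribosomal protein genes and 6.24% of all genes. On the sense strand, a TCT initiator (CTTT starting within 3 bases of the start) and a TATA box (TATAAA from 45 to 15 bases before it) were searched. The TCT initiator was at 12.5% of both general subunits and ribosomal protein genes, 0 of 16 copies and 3.24% of all genes. The TATA box was at 0 of 32 general subunits, 0 of 16 copies, 1.14% of ribosomal protein genes and 9.13% of all genes. Matches of different motifs can overlap, and each motif was counted on its own.

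Genes with a DRE had a pooled summit more often over all genes, 63.7% against 35.3% without. Among general subunits the counts were 11 of 12 with, 91.7%, and 15 of 20 without, 75.0%. Prosalpha6 and Prosbeta1 both carry a DRE, but the median pooled signal was 50.2 with and 52.7 without it. For ribosomal protein genes the direction was the other way, 69.2% with and 85.5% without. Within 100 bases of the summit, a DRE was at 6 of 26 general subunits, 23.1%, 21.1% of ribosomal protein genes and 8.76% of all genes with a summit, and Motif 6 at 30.8%, 16.9% and 11.2%.

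**Figure D5:**
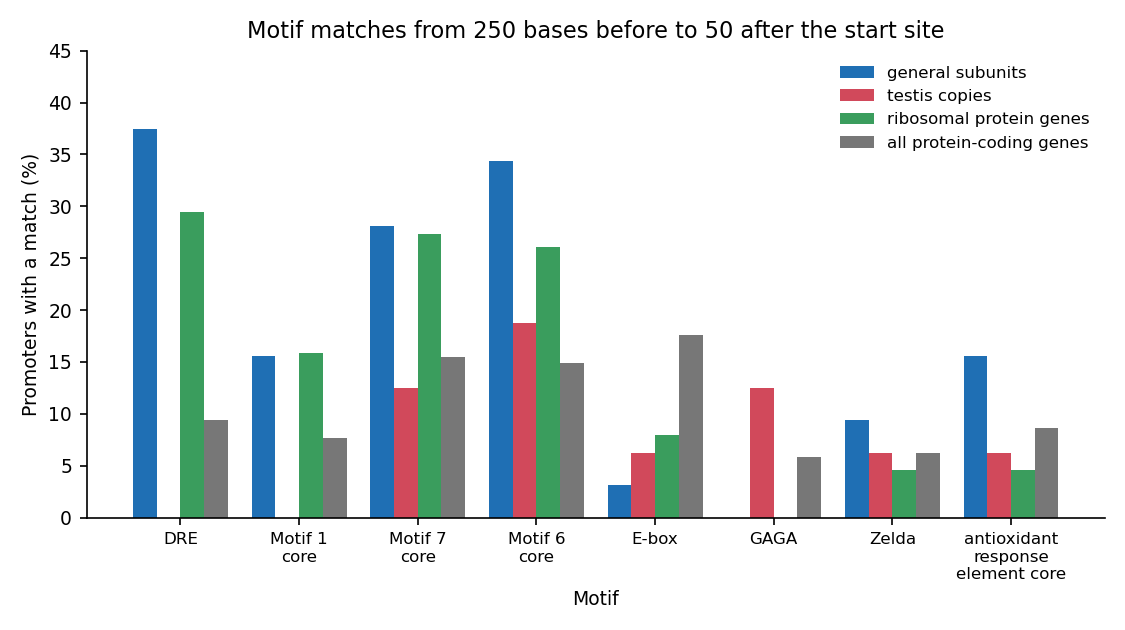
Share of promoters (%) with at least 1 match to each of 8 motifs, from 250 bases before to 50 after the start site, for 32 general subunits, 16 testis copies, 88 ribosomal protein genes and 13968 protein-coding genes. General subunits have the tallest DRE bar, 37.5% against 9.36% of all genes, and the copies have no DRE or Motif 1 match.

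Of 14 genes for partners and regulators of the proteasome, 10 had a pooled summit and 2, RpS27A and Usp14, were in the IDR list, where all genes had 37.9% and 8.84%. With 14 genes the IDR count is not far from that background. RpS27A had relative signals of 13.7 and 12.7 in replicates 4 and 6, or 13.2 ± 0.674 (SD, n = 2), and Usp14 had 11.2 and 10.2, or 10.7 ± 0.724 (SD, n = 2). Both shared their summit with another gene, Ip259 and CG4972. Next came the assembly chaperone gene Pomp, with a pooled signal of 100.1, PI31, a proteasome regulator, with 83.0, and RpL40, the other ribosomal fusion to ubiquitin, with 71.2. The polyubiquitin genes Ubi-p5E and Ubi-p63E and the ubiquitin-activating enzyme gene Uba1 each had 43.0, the activator gene REG 37.3 and TER94, a ubiquitin-dependent unfoldase gene, 27.5. Sem1, a small lid subunit that the symbol rule does not take, was listed in replicate 6 only, at 0.168, and the deubiquitinase gene Uch-L5 in replicate 4 only, at 0.315. Neither cnc, which encodes the activator of proteasome genes, nor maf-S, its dimerization partner, had a summit in any list. RpS27A and RpL40 are also counted among the ribosomal protein genes.

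On the arms, where all members lie, the 5 ribosomal protein genes with the highest pooled signal were RpS27A (2787), RpL12 (1026), RpL39 (532), RpS27 (324) and RpL7 (323). Their relative signals were 13.2 ± 0.674, 4.67 ± 1.15, 2.56 ± 0.416, 1.44 ± 0.433 and 1.43 ± 0.554 (SD, n = 2). After Prosalpha6, no proteasome gene reached the lowest of these, the next highest mean being 0.673 ± 0.151 at Rpn13.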

How the data were processed

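ChIP-seq of Su(var)2-HP2-GFP was analysed in whole embryos, 1 group of 2 replicates. Per the deposited file listing, peaks were called on each replicate's alignment with a control alignment and on both replicates pooled, and the IDR list was made from these. Coordinates are dm6, per the labels. Aligner and caller: not given in the sources used here. Each deposited peak has a signal value, a score of unstated scale, and the deposited lists give a −log10 q-value per peak. 12389 pooled peaks have a q-value under 0.05.

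Summits were assigned to every gene with a start site within 500 bp, using Ensembl release 115. Of the protein-coding genes, 13967 matched the RefSeq Release 6 table by symbol and 13965 had the same start and end. Pericentromeric borders were 2L beyond 22, 3L beyond 23, X beyond 22, 2R up to 5.4 and 3R up to 4.2 Mb. Shares have 95% Wilson intervals. No test was run, since there is 1 group and genes are not replicates. Where a count was 0, the share at 3 counts is the limit. Ribosomal protein genes were those with symbols RpL, RpS or RpLP and sta, gene copies included. Named were all members with a summit in a list, the genes sharing it, the 5 strongest ribosomal protein genes on the arms and the partner genes with a summit. The partner genes without a pooled summit, the members without a summit and the genes around Prosalpha6 were named after their values were seen. The members and lists were chosen with earlier results of these data known. Counting was tested on simulated data with known answers. Alternatives changed the distance, the start-site rule, the peak list, the replicate and the scaling. Python 3.11.15, numpy 2.4.6, pandas 2.3.3 and scipy 1.17.1 were used.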

Additional observations from a re-analysis of the deposited data

How the results depend on the processing

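Under the alternatives, 50 values stayed close to the reported one and 21 moved. The IDR count of 2 members is small and moved with the list. It was 1 with the nearest start site only and in the strongest 1003 IDR peaks. It was also 1 in IDR peaks that each replicate ranked in its own top 2006. An IDR list needs both replicates, so leaving 1 out meant counting in the top 2006 peaks of the other. This gave 3 members in replicate 6 and 4 in replicate 4. The 3000 and 5000 strongest pooled peaks gave 7 and 8. The ribosomal protein count of 37 was 16 in the strongest 1003 and 21 in the peaks ranked so by each replicate. It was 21 and 45 in the top 2006 peaks of replicates 6 and 4 alone, and 57 in the 5000 strongest pooled peaks. Pooled counts fell with a q-value under 0.05, to 16 members (all of them general subunits) and 0 copies, beside 26.6% of all genes. In the 3000 and 5000 strongest peaks they were 7 and 8 general subunits and 0 copies. The count of 1 copy became 2 when the whole gene was searched and was 2 and 1 in the lists of replicates 4 and 6 alone. Divided by the median of the whole list, relative signal was 71.0 at Prosalpha6 and 3.33 at Prosbeta1, a change of scale by construction. Limits of 3000 and 5000 peaks, alternatives for general subunits and copies alone and the removal of the Prosalpha1 pair were chosen after seeing the data. No paired analysis was possible because there is 1 group. Depth is unknown, and a gene without a summit may hold signal under the lowest pooled value of 17.5.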

Other observations

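The genes around Prosalpha6 on 2L that had stronger promoter summits were ClpP with its neighbour CtsL4, at a pooled signal of 3063 (rank 28), me31B at 2951 (rank 34), and RpS27A with Ip259. ClpP encodes a mitochondrial protease and me31B an RNA helicase of translational repression. Next below Prosalpha6 was the summit shared by the mitotic kinase gene Cdk1 and mRpS7, at 2623 (rank 57). Within the same 200000 bp, the gene eEF1delta, for a translation elongation factor subunit, had 1019, and RpL7, on the other side of Prosalpha6, had 323. These genes were picked after their values were seen, and summits of the same stretch are not independent.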
